A study of Mus musculus with 99 samples.

Results

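This account follows 10 genes that mark relay neurons of the thalamus: Tcf7l2, Gbx2, Lef1, Rora, Zic1, Prkcd, Tnnt1, Ramp3, Synpo2 and Plekhg1. They were chosen as known thalamic identity genes and were found in the count tables through the GENCODE symbols of their Ensembl identifiers. All 10 were found among 55335 rows. The study sequenced RNA from punches of 5 brain regions in 99 libraries from juvenile wildtype mice of both sexes. They sampled the nucleus accumbens (NAc), prelimbic cortex (PrL), somatosensory cortex (S1), the ventrobasal nuclei of the thalamus (VBT) and, in the midbrain, the ventral tegmental area (VTA). In the fentanyl groups, C57BL/6 dams drank fentanyl, a synthetic opioid, at 10 µg/ml from embryonic day 0 until their pups were weaned. In the water groups the labels name only water. Each combination of region, sex and treatment held 5 libraries, except S1 from males of the water group, with 4. The labels give neither litters nor animals, so the p-values measure only the spread between these libraries, which may be partly technical. In bulk punches, fewer relay neurons and less RNA of a gene per neuron cannot be told apart.

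Relay neurons of the thalamus are excitatory neurons that pass sensory signals to the cortex, and those of the ventrobasal nuclei serve touch and pain from the body and face. Gbx2, a homeobox factor, is needed in developing thalamic neurons. Tcf7l2 and Lef1 belong to the family of DNA-binding proteins through which β-catenin acts in Wnt signalling, and Tcf7l2 maintains the identity of postmitotic thalamic neurons. Rora encodes a nuclear receptor and Zic1 a zinc finger factor. The other 5 genes encode a protein kinase C (Prkcd), a troponin T best known from slow muscle (Tnnt1), an accessory protein of calcitonin family receptors (Ramp3), an actin-binding protein (Synpo2) and a guanine nucleotide exchange factor (Plekhg1).

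One library stood apart before any comparison and was left out: the third library labelled VTA from water males had counts in 6333 genes, against at least 24079 in each of the other 98, and 3098 CPM of other thalamic genes. Those 98 libraries held 23032078 to 52069639 counts in genes, with a median of 36024982. Levels are given in CPM, counts scaled to the total of each library. In the libraries kept, 15 other thalamic genes summed to 1689 to 4555 CPM in VBT and to at most 1449 elsewhere, and dopamine neuron genes to at least 335 CPM in VTA and at most 69.3 elsewhere. Adarb1, at 1523 CPM, had the highest VBT mean of the 15, and 4 of them (Lhx2, Calb2, Foxp2 and Cdh6) had their highest mean outside VBT. Within VBT, 4 libraries stood apart and are described with the results: female water 2, male water 3, and male fentanyl 4 and 5. In PrL, female water 5 and male water 3 held 171 and 324 CPM of olfactory bulb marker genes, against at most 31.0 in the other 18.

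The stretches in front of 4 of the genes are printed because these genes moved apart in 2 VBT libraries described further on: Tcf7l2 stayed near its median there, while Rora, Prkcd and Synpo2 were low. Tnnt1 and Plekhg1 were low there too, and their stretches are not printed. Each run gives the 250 bases before the RefSeq start (build GRCm38.p6), 5′ to 3′ on the strand of the gene, and capitals mark a TAATTA homeobox core.
Tcf7l2 chr19:55741560-55741809 plus strand: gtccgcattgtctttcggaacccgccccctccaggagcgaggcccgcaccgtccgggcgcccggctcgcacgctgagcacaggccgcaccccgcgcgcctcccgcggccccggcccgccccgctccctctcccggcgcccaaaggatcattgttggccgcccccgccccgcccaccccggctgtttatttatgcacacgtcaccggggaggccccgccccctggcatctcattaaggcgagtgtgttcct
Rora chr9:68653536-68653785 plus strand: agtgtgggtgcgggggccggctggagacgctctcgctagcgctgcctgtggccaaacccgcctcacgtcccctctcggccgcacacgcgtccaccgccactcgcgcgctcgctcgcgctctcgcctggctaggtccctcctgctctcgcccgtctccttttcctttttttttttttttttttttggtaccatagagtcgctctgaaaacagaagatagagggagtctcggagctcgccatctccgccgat
Prkcd chr14:30626209-30626458 minus strand: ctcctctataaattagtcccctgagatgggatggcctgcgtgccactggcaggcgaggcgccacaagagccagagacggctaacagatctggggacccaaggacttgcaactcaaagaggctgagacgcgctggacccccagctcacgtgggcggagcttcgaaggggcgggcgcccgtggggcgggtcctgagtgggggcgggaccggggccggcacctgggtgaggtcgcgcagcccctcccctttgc
Synpo2 chr3:123236150-123236399 minus strand: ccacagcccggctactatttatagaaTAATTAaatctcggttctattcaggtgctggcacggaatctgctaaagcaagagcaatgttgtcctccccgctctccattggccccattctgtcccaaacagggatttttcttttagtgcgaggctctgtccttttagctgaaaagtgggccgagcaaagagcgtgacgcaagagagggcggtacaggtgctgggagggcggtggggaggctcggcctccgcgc
The G and C content of these runs was 72.8% for Tcf7l2, 61.2% for Rora, 67.6% for Prkcd and 54.4% for Synpo2. Over all 10 genes, the TAATTA core stood only in the Synpo2 run, against 4.91% of 27026 RefSeq promoters of the same length. Neither the TCF/LEF core, searched as CTTTG followed by any pair of A and T, nor the ROR half-site AGGTCA was found in any of the 10 on either strand; 14.9% and 13.8% of all promoters held them. A missing match says only that these letters are not in this window.

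All 10 genes had their highest mean in VBT. Set against the merged length of all annotated exons of a gene, Prkcd was the most abundant, at 283 ± 78.7 CPM per kb of exon (SD, n = 20), and Ramp3 followed at 123 ± 19.4. That length can exceed the length of any single transcript. Rora (65.4 ± 17.0), Tnnt1 (63.5 ± 23.0), Plekhg1 (59.7 ± 11.5) and Zic1 (57.9 ± 12.5) formed a middle group whose per-length levels differed by less than their spread. Tcf7l2 (26.1 ± 5.84) and Synpo2 (25.6 ± 6.15) lay lower on the same scale, followed by Lef1 (9.17 ± 2.15). Gbx2, at 4.96 ± 2.12, was the least abundant. Since the genes are known as thalamic, their excess in VBT is given as a description, with no test. Of the 11702 genes with a mean of at least 5 CPM in VBT, 23.0% had their highest mean there, and 1.84% had every VBT library above every library of the other regions. Of the 10 thalamic genes, 9 had every VBT library above all others.

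Of the 5 transcription factors, VBT held 70.7% (Rora) to 90.3% (Gbx2) of the sum of the 5 region means. Tcf7l2 (chr19:55741820-55933654, plus strand in GRCm38) measured 229 ± 51.3 CPM (SD, n = 20) in VBT, 84.8% of that sum. Its next region was VTA at 23.6 ± 8.23 CPM (SD, n = 19), above NAc at 8.22, S1 at 5.36 and PrL at 4.05 CPM. Among the water libraries VTA exceeded NAc and NAc exceeded S1 in edgeR's quasi-likelihood test with Benjamini-Hochberg adjustment (adjusted p = 1.76e-09 and 0.00705), while S1 and PrL did not differ beyond their spread (adjusted p = 0.496). Lef1 (chr3:131110471-131224356, plus strand) measured 80.6 ± 18.9 CPM (SD, n = 20) in VBT and 3.90 to 6.15 CPM as the mean of each other region. S1 and VTA were not told apart by edgeR (adjusted p = 0.587), VTA exceeded PrL by 0.34 log2 units (adjusted p = 0.0429), and PrL and NAc were not told apart (adjusted p = 0.0604).

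Gbx2 (chr1:89927956-89931179, minus strand) measured 10.8 ± 4.62 CPM (SD, n = 20) in VBT. NAc followed at 0.756 ± 0.483 CPM (SD, n = 20) and VTA at 0.363 ± 0.438 CPM (SD, n = 19), and these 2 were not told apart (edgeR adjusted p = 0.0986). In S1 it had no read in 12 of 19 libraries and at most 3, and in PrL no read in 11 of 20 and at most 4. A count of 0 allows up to 3 counts, or 0.0664 to 0.107 CPM at the depths of the S1 libraries, for counting error only. Exons of Gbx2 share 946 bases with D130058E05Rik on the other strand. The library kit does not mark strand, so reads of the 2 genes cannot be told apart there, nor over the 1208 shared bases of Lef1 and Gm43352.

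Rora (chr9:68653786-69388246, plus strand) had the smallest VBT share of the 10. It measured 854 ± 223 CPM (SD, n = 20) in VBT and 151 ± 32.4 CPM (SD, n = 19) in S1. S1 exceeded VTA (86.7 CPM) by 1.09 log2 units in water libraries (SE 0.13, edgeR adjusted p = 4.77e-10); VTA and PrL (69.1) were not told apart (0.565), and NAc was lowest at 46.4. Zic1 (chr9:91358058-91365810, minus strand) measured 329.7 ± 71.1 CPM (SD, n = 20) in VBT and varied widely elsewhere, with NAc at 44.5 ± 28.8 CPM (SD, n = 20) and PrL at 26.0 ± 18.8 CPM (SD, n = 20). It was the 1 gene whose ranges met: NAc male water 1 held 151 CPM, above the lowest VBT library at 148. That NAc library also held the highest Prkcd outside VBT, 67.4 CPM, while its other thalamic genes summed to 555 CPM, within the NAc range of 439 to 643.

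The other 5 genes held 82.5% (Ramp3) to 97.0% (Prkcd) of their summed region means in VBT. Prkcd (chr14:30595354-30626210, minus strand) measured 1568 ± 436 CPM (SD, n = 20) in VBT and 8.65 to 15.8 CPM as the mean of each other region, where no neighbouring pair in the order was told apart, while NAc exceeded PrL and S1 and VTA exceeded PrL (edgeR adjusted p = 0.00196, 0.0268 and 0.0401). Tnnt1 (chr7:4504570-4516382, minus strand) measured 140.0 ± 50.6 CPM (SD, n = 20) in VBT (94.9%), against 2.74 in VTA and 2.47 in S1, which were not told apart (edgeR adjusted p = 0.994). In NAc it was 7.78, 7.16 and 4.47 CPM in female fentanyl 2 and 5 and female water 2, and at most 1.07 in the other 17. Synpo2 (chr3:123076519-123236149, minus strand) measured 334 ± 80.5 CPM (SD, n = 20) in VBT (91.1%), and its neighbours VTA, NAc, S1 and PrL, from 11.7 down to 5.22 CPM, were not told apart at any of the 3 steps in that order, while VTA exceeded S1 by 0.70 and PrL by 0.91 log2 units (edgeR adjusted p = 0.000592 and 1.31e-05) and NAc exceeded PrL (adjusted p = 0.00608). Plekhg1 (chr10:3740364-3967303, plus strand) measured 521 ± 101 CPM (SD, n = 20) in VBT and a steady 52.5 ± 3.08 CPM (SD, n = 19) in VTA, above NAc (23.9) with an adjusted p of 4.41e-11.

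Ramp3 (chr11:6658521-6677475, plus strand) had an order of its own. It measured 169.7 ± 26.7 CPM (SD, n = 20) in VBT, then 18.3 ± 7.4 CPM (SD, n = 20) in PrL, 9.83 in S1, 6.13 in NAc and 1.77 in VTA, and each step among these 4 regions passed the edgeR test (adjusted p = 0.00458, 2.11e-05 and 2.17e-09 in turn). Of its receptor partners, Calcrl, which forms adrenomedullin receptors with RAMP proteins, averaged 8.04 CPM in VBT, and Calcr 0.116. Its relatives Ramp1 and Ramp2 averaged 33.3 and 7.96 CPM there, with 19.1% and 19.3% of their summed region means in VBT, against 82.5% for Ramp3. Over all 10 genes, 13 of the 30 steps between neighbouring regions outside VBT passed the test in the direction of the means. Over all 20216 genes tested, the share called was 69.2% between VTA and S1, 68.2% between VTA and PrL, 66.2% between VTA and NAc, 55.1% between S1 and NAc, 52.1% between PrL and NAc and 39.5% between S1 and PrL. These shares are for fixed pairs of regions, in either direction. The steps join regions next to each other in the order of each gene's own means, so the counts are not alike.

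**Figure D1:**
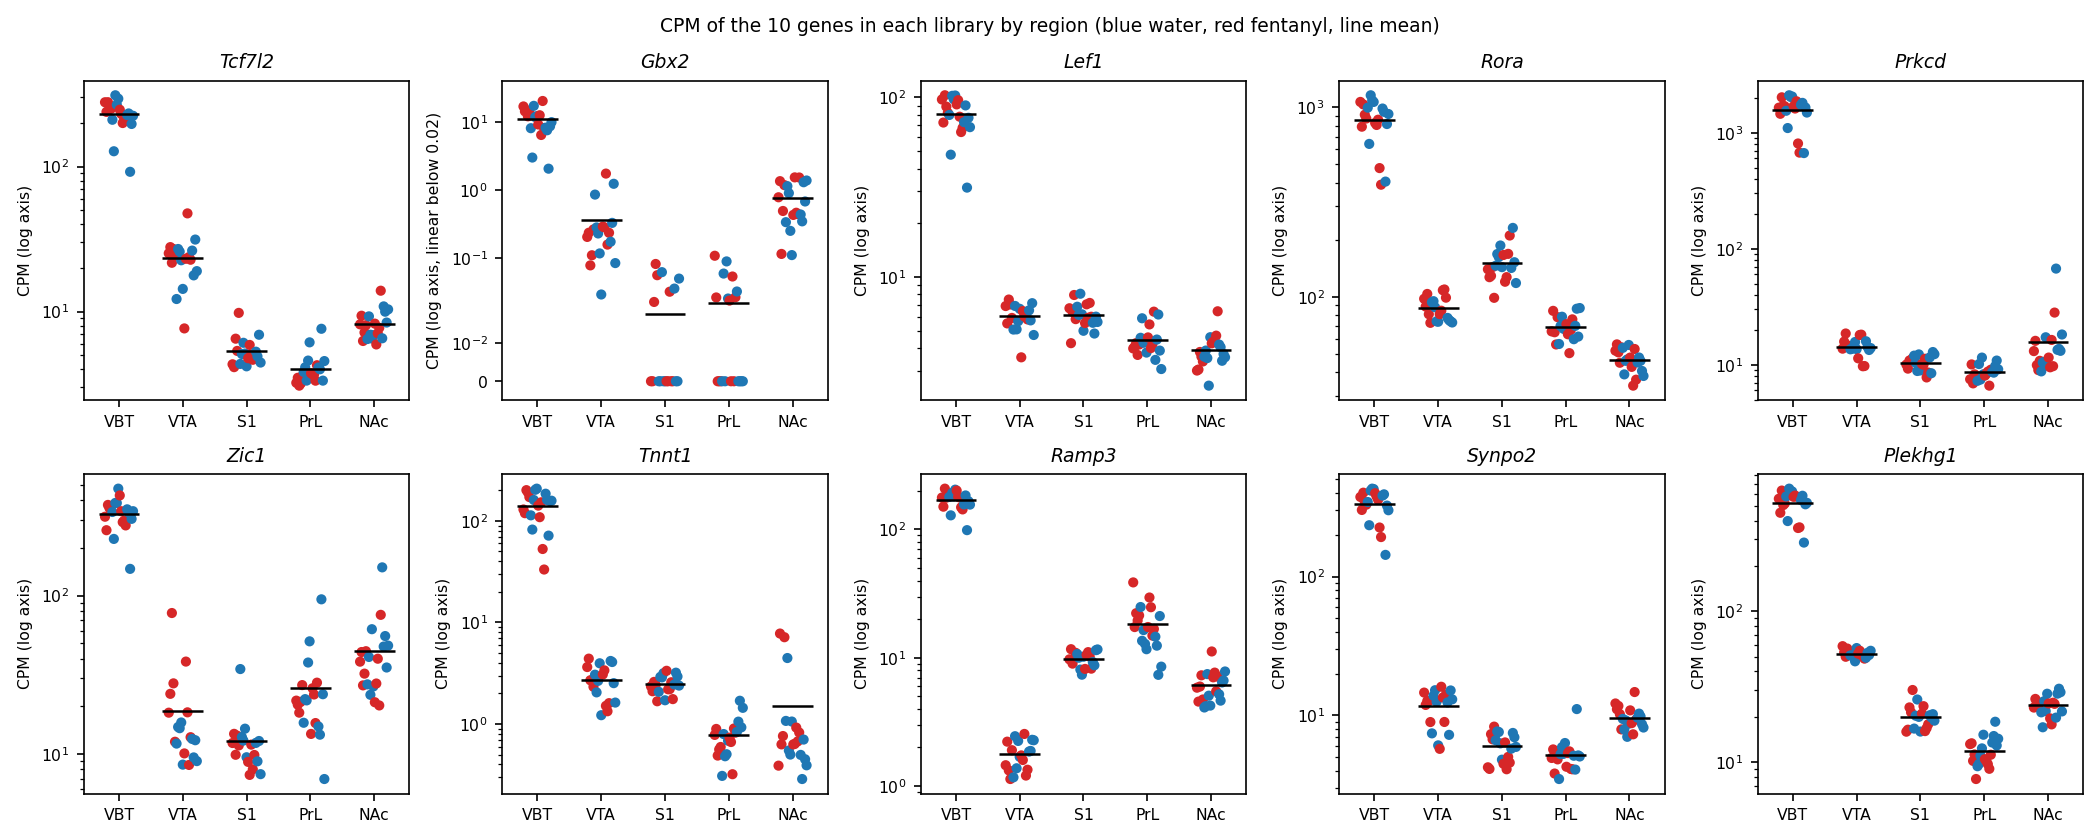
CPM of each gene in each of 98 libraries (points, red for fentanyl and blue for water) by region, on log axes, with the region mean as a line. The Gbx2 axis is linear below 0.02 so that libraries with no read can be shown. VBT stands highest for all 10 genes, and Ramp3 has its next level in PrL, Rora in S1 and Zic1 in NAc.

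Genes with the most similar spread over the 5 regions were found by the summed absolute difference in percent of region means. Of 11692 candidates, the nearest to the median profile of the 10 were Zfp385c (3.89 percentage points), Grid2ip (3.93), Rgs16 (4.35), Gm43398 (4.72) and Rasd1 (6.2). Rgs16, a regulator of G protein signalling, is also on the list of other thalamic genes. For single genes, the nearest was Wnt9b to Prkcd (2.23 points), Kcne4 to Lef1 (3.06), Smpx to Tnnt1 (3.46), Gckr to Synpo2 (4.22), Frem3 to Tcf7l2 (5.14), Trp73 to Zic1 (5.65), Plekhd1 to Plekhg1 (6.66), Adamts19 to Ramp3 (8.0) and Fzd10 to Rora (8.30). Gbx2 was nearest to D130058E05Rik (3.82), with which it shares exon bases.

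Within VBT the 10 genes were all low by at least 0.46 log2 units in 2 libraries and spread further apart in 2 others. In male water 3 the ratio to the median of the 20 VBT libraries was below 0 on the log2 scale for every gene, from -2.40 (Gbx2) to -0.84 (Ramp3), and this library was the lowest of 20 for 8 genes. In female water 2 the ratios ran from -1.86 (Gbx2) to -0.46 (Ramp3). The other thalamic genes were low in both, at 1689 and 2468 CPM against a VBT median of 3763 CPM. Male water 3 had the highest sums of oligodendrocyte genes (45833 CPM) and striatal genes (714) in VBT. Female water 2 had the highest sum of choroid plexus genes (4575 CPM). Markers of GABA neurons (Gad1, Gad2, Slc32a1, Pvalb, Sst, Six3 and Ecel1) summed to 2232 and 1878 CPM in male water 3 and female water 2. This list averaged 1670 CPM in NAc and 1326 in VBT, so it does not single out neurons of the reticular nucleus. The part of the cells marked by these lists in the low values was not tested.

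In male fentanyl 4 and 5 the other thalamic genes summed to 2763 and 2284 CPM, and 9 and 10 of the 10 genes lay below their VBT median. Tnnt1 was lowest there, at 52.9 and 33.2 CPM, or -1.55 and -2.22 log2 units from the VBT median. Prkcd (-1.05 and -1.31), Rora (-0.90 and -1.20), Synpo2 (-0.64 and -0.87) and Plekhg1 (-0.63 and -0.62) were low as well. Tcf7l2 stayed within -0.11 of its median in both and Zic1 within -0.29. Gbx2 was the highest of all 20 VBT libraries in male fentanyl 4, at 20.2 CPM, and 8.04 in male fentanyl 5. Among the other thalamic genes, Calb2, which encodes calretinin, stood at 80.4 and 72.6 CPM, above the 2.94 to 38.6 of the other 18. The transcription factor gene Lhx2 stood at 12.7 and 11.8, against 1.09 to 6.99. Hcn4, a pacemaker channel gene, stood at 49.2 and 44.7, against 39.5 to 127, and Adarb1 at 1009 and 854, against 785 to 1909. The markers of GABA neurons summed to 2252 and 1748 CPM. The 4 libraries that stood apart thus held the 4 highest of these sums in VBT, and the other 16 ran from 411 to 1578 CPM. Male fentanyl 5 also held 35176 CPM of oligodendrocyte genes, second to male water 3, with 658 CPM of choroid plexus and 293 CPM of striatal genes. Their part in the pattern was not tested.

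**Figure D2:**
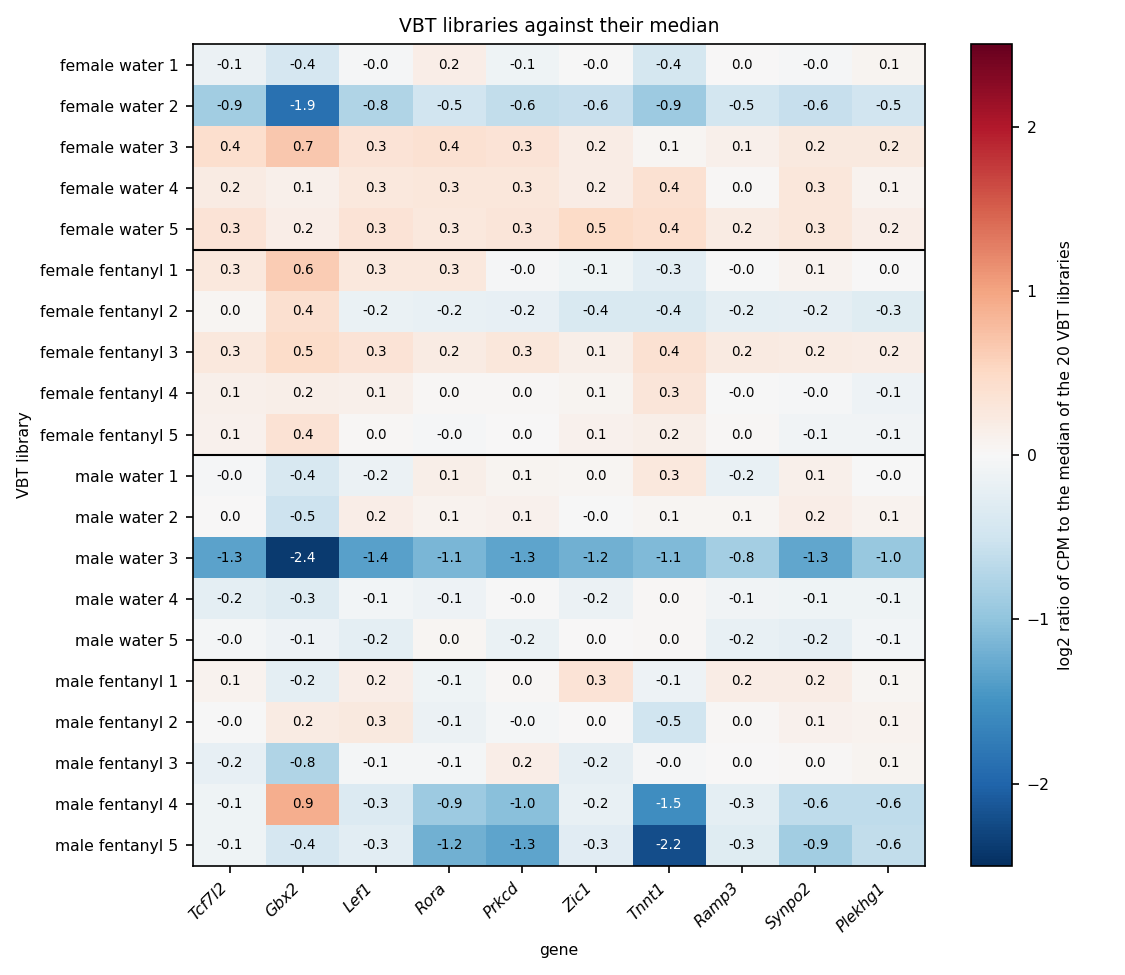
Log2 ratio of each gene's CPM to its median over the 20 VBT libraries, one row per library and one column per gene, with rows ordered by group. Female water 2 and male water 3 are low in all 10 columns, whereas male fentanyl 4 and 5 are low in Rora, Prkcd, Tnnt1, Synpo2 and Plekhg1 but near 0 in Tcf7l2.

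The 4 libraries were set aside because their values stood apart, so a smaller spread among the rest follows from that choice. The coefficient of variation over the other 16 VBT libraries was 9.23% for Plekhg1 and 9.31% for Ramp3, from 19.3% and 15.8% over all 20. Gbx2 remained the most variable, at 29.2% (42.8% over all 20), followed by Tnnt1 at 19.96% (36.2%). The highest of the 16 exceeded the lowest by 1.38-fold for Ramp3 and by 2.68-fold for Gbx2.

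Fentanyl and water were compared in VBT within each sex, over both sexes and as the difference between the sexes. None of the 10 genes passed the test in any of these 4 comparisons (edgeR's quasi-likelihood test, adjusted p under 0.05 over 18923 genes), and the share of all genes called was 0% in each. With 1 library left out, at most 24 genes were called in males (without male fentanyl 3) and 18 for the difference (without male water 2). None of the 10 reached an unadjusted p under 0.05 in that fit, against 7.86%, 8.70%, 8.49% and 8.03% of all genes tested in females, males, over both sexes and for the difference. Limma-voom called none of the 10, and DESeq2 none of those it adjusted. The groups overlapped for every gene in both sexes; 2.06% of all genes in females and 0.967% in males had groups that did not overlap. Of the 10 estimates over both sexes, 5 were above 0, and their median was -0.02 on the log2 scale, beside -0.01 for all genes.

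Gbx2 had the estimate over both sexes furthest from 0. Its CPM was 8.04, 2.98, 17.1, 11.7 and 12.1 in female water and 16.8, 14.2, 14.8, 12.02 and 13.8 in female fentanyl. In males it was 8.18, 7.5, 2.05, 8.58 and 9.87 with water and 9.13, 12.5, 6.4, 20.2 and 8.04 with fentanyl. The lowest value of each sex lay in a water group, but the ranges met in both sexes. The log2 difference of Gbx2 over both sexes was 0.52 (SE 0.28, 95% interval -0.07 to 1.11, adjusted p = 0.627) by edgeR, so a fall of more than 0.07 or a rise of more than 1.11 lay outside the interval. It was 0.27 with limma-voom and 0.17 (SE 0.15) without the 4 libraries that stood apart.

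Tnnt1 had an estimate below 0 in males, where male fentanyl 4 and 5 were the lowest libraries. Its CPM was 185, 161, 71.6, 157 and 158 in male water and 141, 109, 152, 52.9 and 33.2 in male fentanyl. In females it was 113, 82.2, 161, 203 and 208 with water and 129.6, 119, 201, 191 and 172 with fentanyl, and these sets overlapped. The log2 difference in males was -0.58 (SE 0.37, 95% interval -1.37 to 0.20, adjusted p = 0.719) by edgeR. Without the 4 libraries that stood apart it was -0.29 (SE 0.22). The difference between the sexes was -0.65 (SE 0.53, 95% interval -1.76 to 0.46, adjusted p = 0.848) and did not pass.

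Rora, the nuclear receptor gene, measured 987, 948, 406, 817 and 923 CPM in male water and 828, 808, 861, 478 and 390.5 in male fentanyl. In females it was 997, 642, 1159, 1089 and 1069 with water and 1069, 791, 1037, 915 and 874 with fentanyl. The log2 difference over both sexes was -0.19 (SE 0.18, 95% interval -0.56 to 0.18, adjusted p = 0.797) by edgeR. Prkcd measured 1741, 1808, 667, 1650.3 and 1492 CPM in male water and 1694, 1616, 1866, 807 and 673 in male fentanyl. In females it was 1546, 1097, 2103, 2034 and 2052 with water and 1644, 1456, 2019, 1709.7 and 1688 with fentanyl. For Prkcd each male group held low libraries, 1 with water and 2 with fentanyl. The log2 difference over both sexes was -0.11 (SE 0.21, 95% interval -0.55 to 0.33, adjusted p = 0.908).

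Tcf7l2 measured 226, 232, 92.0, 196 and 224 CPM in male water and 246, 231, 199, 215 and 216 in male fentanyl. In females it was 210.0, 127, 309.8, 267 and 293 with water and 277, 238, 277, 252 and 249 with fentanyl. The groups overlapped in both sexes, and the lowest value of each sex was a water library. Its log2 difference over both sexes was 0.13 (SE 0.16, 95% interval -0.21 to 0.46, adjusted p = 0.857) by edgeR. Ramp3 had the narrowest interval of the 10, with a log2 difference of 0.07 (SE 0.11, 95% interval -0.16 to 0.31, adjusted p = 0.89). Lef1, Zic1, Synpo2 and Plekhg1 had estimates over both sexes of 0.12, 0.00, -0.05 and -0.06, and all 4 intervals lay within -0.43 and 0.48.

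The share of reads outside exons was 13.0% in male water 3 and 10.4% to 12.1% in the other 19 VBT libraries. With that share as a covariate none of the 10 passed, but several estimates moved away from 0. In males Tnnt1 was then -1.18 (SE 0.34, edgeR adjusted p = 0.192), Rora -0.66 (0.198), Prkcd -0.63 (0.219), Synpo2 -0.39 (0.33) and Plekhg1 -0.31 (0.36). These 5 had an unadjusted p under 0.05 in males, as did 13.8% of all genes, and the same 5 did over both sexes, beside 11.2% of all genes. Over both sexes Rora was -0.39 (SE 0.13, edgeR adjusted p = 0.345), Prkcd -0.37 (0.376), Tnnt1 -0.59 (0.376), Synpo2 -0.26 (0.428) and Plekhg1 -0.22 (0.427). For the difference between the sexes Tnnt1 alone had an unadjusted p under 0.05 (-1.19, adjusted p = 0.281), beside 12.8% of all genes.

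A pair of fits chosen after the data were seen took the uneven VBT libraries into account. With the level of the other thalamic genes as a covariate, none of the 10 passed. In males 6 had an unadjusted p under 0.05, beside 14% of all genes, and they pointed both ways. Rora had an estimate of -0.34 (SE 0.07, edgeR adjusted p = 0.0665), Tnnt1 of -0.75 (adjusted p = 0.119) and Prkcd of -0.23 (0.32), while Lef1 (0.23, adjusted p = 0.166), Gbx2 (0.74, 0.354) and Ramp3 (0.13, 0.235) pointed up. Over both sexes Rora was -0.22 (edgeR adjusted p = 0.1785), Tnnt1 -0.33 (0.347), Lef1 0.14 (0.27), Gbx2 0.64 (0.275) and Tcf7l2 0.17 (0.345). For the difference between the sexes Tnnt1 was -0.86 (0.2215) and Rora -0.24 (0.33). The covariate is itself a sum of thalamic genes, so these estimates are relative to those genes. Without the 4 libraries that stood apart, none of the 10 passed. Rora was then -0.18 over both sexes (SE 0.06, adjusted p = 0.738) and -0.14 in males, and Prkcd in males turned to 0.05. In females 3 had an unadjusted p under 0.05: Rora (-0.22), Synpo2 (-0.22) and Plekhg1 (-0.21), beside 10% of all genes. For the difference between the sexes 3 did as well, Ramp3 (0.28), Synpo2 (0.34) and Plekhg1 (0.31), beside 10.3% of all genes, and their estimates in males were above 0.

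**Figure D3:**
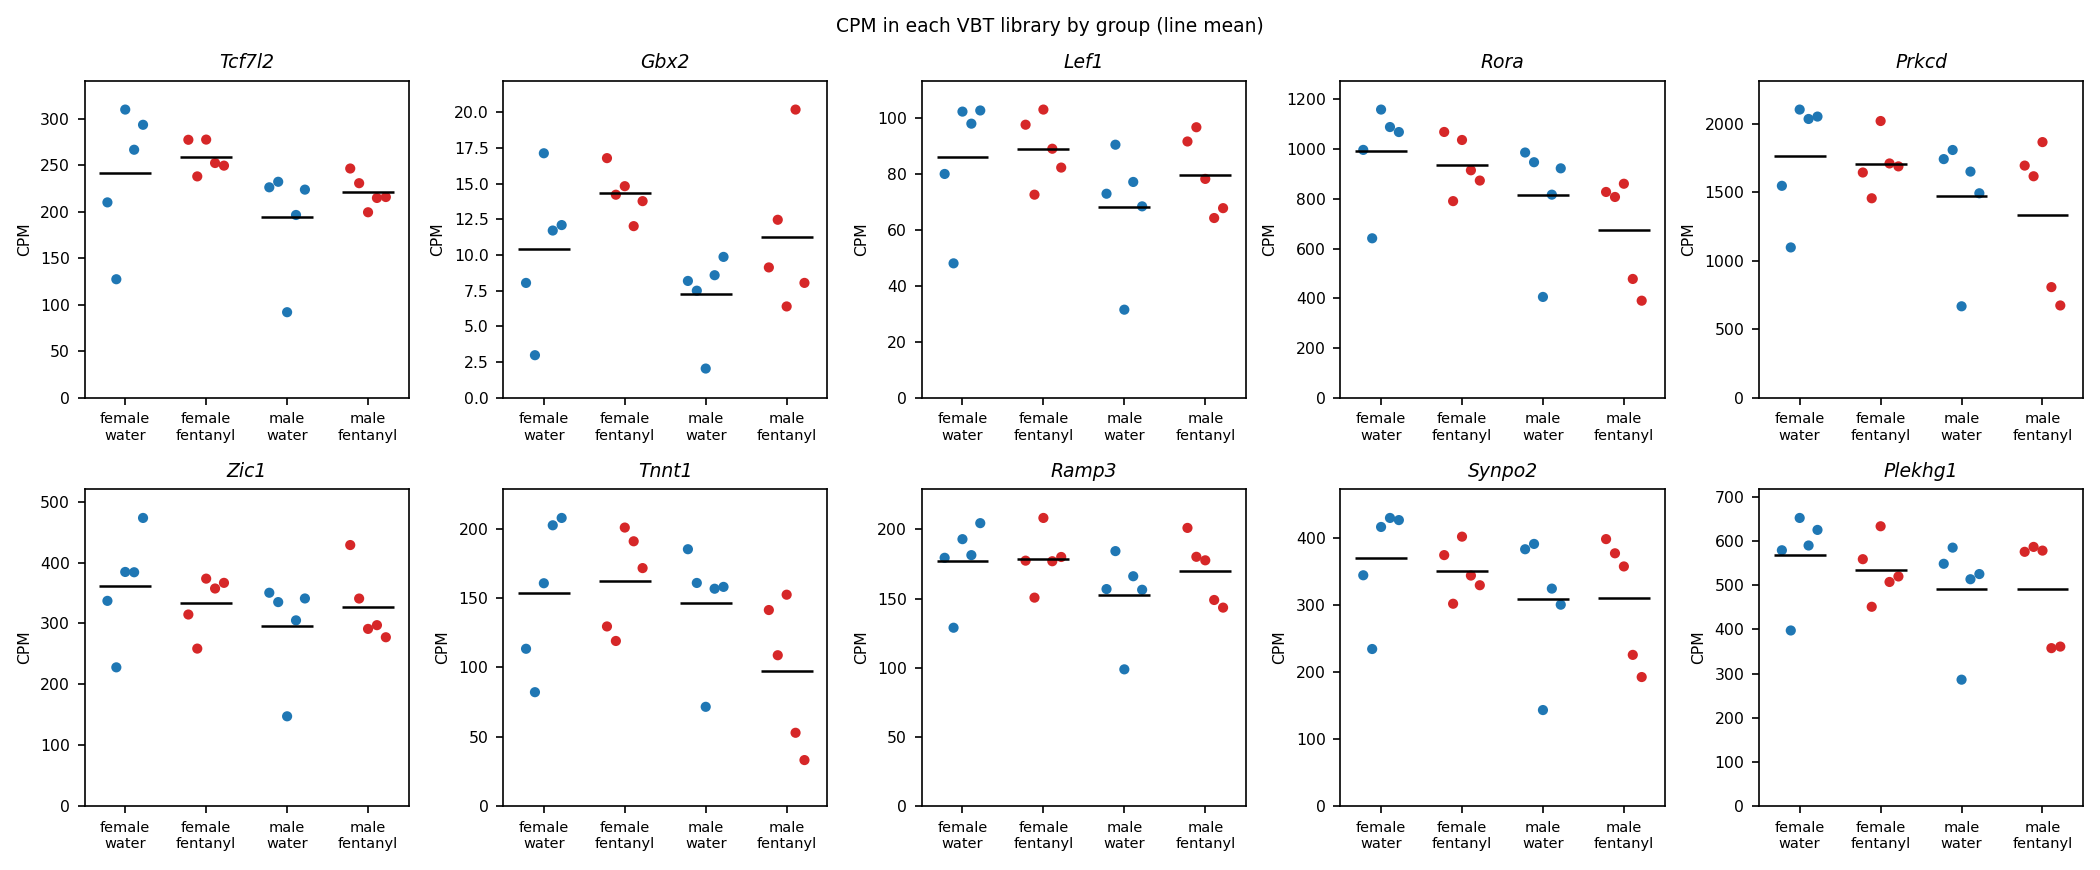
CPM of each gene in each VBT library by sex and treatment, on axes from 0, with group means as lines. The fentanyl and water points overlap for all 10 genes in both sexes, and male water 3 is the lowest point for 8 genes.

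Of the other genes around these 10, none of the 15 other thalamic genes and none of the 10 tested Wnt pathway genes (of 11) passed in VBT in any comparison. Their median estimates over both sexes were -0.04 and -0.02 on the log2 scale, beside -0.01 for all genes. The Wnt list holds Ctnnb1, which encodes β-catenin, the feedback genes Axin2, Nkd1, Rnf43, Znrf3 and Notum, and the other TCF genes. Per kb of exon, Tcf7 and Tcf7l1 averaged 1.67 and 1.05 CPM in VBT, against 26.1 for Tcf7l2 and 9.17 for Lef1.

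In VTA, Rora passed the test in males and over both sexes, in comparisons where 22% and 23.1% of all genes did. Its CPM in males was 77.2, 75.2, 74.1 and 73.1 with water, in the 4 libraries kept, and 80.8, 84.3, 108, 109 and 98.8 with fentanyl. All 5 fentanyl libraries lay above all 4 water libraries. The log2 difference in males was 0.40 (SE 0.11, 95% interval 0.17 to 0.63, adjusted p = 0.0144) by edgeR. Over both sexes it was 0.22 (SE 0.08, 95% interval 0.07 to 0.38, adjusted p = 0.0364). In females the CPM was 93.5, 94.7, 87.9, 74.1 and 73.7 with water and 97.5, 88.6, 103, 80.8 and 72.7 with fentanyl, and the groups overlapped, with a log2 difference of 0.05 (SE 0.10, 95% interval -0.17 to 0.26, adjusted p = 0.874). The difference between the sexes did not pass (edgeR adjusted p = 0.42). Of 19822 genes tested in VTA, 22% were called in males (4355 genes, and 2659 without male water 4), 23.1% over both sexes, 0% in females and 0% for the difference, and 22.4% had male and 1.61% female groups that did not overlap. A count of 1 of 10 called in males and 2 of 10 over both sexes is near that share. With offsets for the G and C content of each gene, the share called fell to 3.11% in males and 3.79% over both sexes, and none of the 10 was called. The estimate of Rora was then 0.21 (SE 0.09, adjusted p = 0.243) in males and 0.09 (adjusted p = 0.503) over both sexes. With offsets for exon length it was 0.17 (adjusted p = 0.0594) over both sexes. With VTA male water 3 kept in, where Rora stood at 321 CPM, it was -0.13 in males (adjusted p = 1). Dopamine neuron genes summed to 864 to 1499 CPM in the water males and 335 to 1240.0 in the fentanyl males. Choroid plexus genes summed to 12.6 to 26.2 CPM in the fentanyl males and, in the water males kept, to 1045 CPM in male water 2 and at most 50.6 in the other 3; in males 3 of the 6 were called lower. Of the 15 other thalamic genes, 12 had estimates above 0 in males (median 0.22, beside 0.00 for all genes), none was called higher and 1 was called lower. The part of these in the Rora result was not tested.

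Zic1 also passed in VTA over both sexes. In females it measured 11.6, 14.8, 14.6, 15.8 and 8.58 CPM with water and 18.3, 24.0, 77.7, 27.9 and 11.96 with fentanyl. In males it was 12.5, 9.53, 12.2 and 9.03 with water and 10.1, 38.4, 18.3, 8.54 and 12.8 with fentanyl. The groups overlapped in both sexes, and the 2 highest values were female fentanyl 3 and male fentanyl 2. The log2 difference over both sexes was 1.0 (SE 0.34, 95% interval 0.29 to 1.71, adjusted p = 0.0416) by edgeR. Without female fentanyl 3 it was 0.68 (adjusted p = 0.0683), and without male fentanyl 2 it was 0.76 (adjusted p = 0.0757). Zic1 did not pass with limma-voom (0.77, adjusted p = 0.0549), with no filter on low counts (0.99, 0.0857), with offsets for GC content (0.98, 0.126) or with VTA male water 3 kept in (0.07, adjusted p = 1). It passed in 7 of 19 fits that each left out 1 library, and Rora over both sexes in 9 of 19, whereas Rora in males passed in 19 of 19. Marker genes of cortex summed to 159.7 and 66.1 CPM in female fentanyl 3 and male fentanyl 2, the highest among the VTA libraries kept, and dopamine neuron genes to 440.1 and 1143. Their part in the Zic1 result was not tested.

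In PrL none of the 9 genes tested passed, against a share called of 0.021% in females, 0% in males, 0.697% over both sexes and 0% for the difference. The 133 genes called over both sexes became 38 without female water 5 and 289 without female water 1. Gbx2 was too low to test there. Plekhg1 had the smallest p of the 9 in males. Its CPM was 13.5, 14.9, 18.5, 12.9 and 14.3 with water and 10.5, 10.1, 9.7, 9.03 and 11.2 with fentanyl, and every fentanyl library lay below every water library; 2% of all genes had male groups that did not overlap. The log2 difference of Plekhg1 in males was -0.53 (SE 0.14, 95% interval -0.82 to -0.24, adjusted p = 0.315) by edgeR. Its CPM in females was 9.4, 9.74, 11.0, 12.3 and 15.2 with water and 13.2, 13.3, 10.2, 11.2 and 7.73 with fentanyl, overlapping sets, as for all but 2.18% of genes. Tnnt1, at most 1.7 CPM in PrL, had a log2 difference in males of -0.76 (SE 0.28, 95% interval -1.34 to -0.18, adjusted p = 0.358) and a difference between the sexes of -1.06 (SE 0.40, 95% interval -1.90 to -0.22, adjusted p = 0.999). Its groups overlapped in both sexes. Ramp3 measured 14.6, 12.4, 7.35, 21.1 and 8.52 CPM in male water and 17.4, 29.5, 24.8, 14.9 and 16.8 in male fentanyl. In females it was 24.9, 13.5, 16.4, 12.8 and 11.6 with water and 38.7, 17.3, 22.2, 19.5 and 21.4 with fentanyl. The Ramp3 groups overlapped, and the log2 difference over both sexes was 0.66 (SE 0.21, 95% interval 0.21 to 1.11, adjusted p = 0.119). With the share of reads outside exons as a covariate the Ramp3 estimate was 0.35 (SE 0.41, adjusted p = 0.891). Plekhg1 in males was -0.61 in that edgeR fit (adjusted p = 0.544). In PrL females the share was 9.99% to 11.83% with fentanyl and 12.1% to 14.05% with water. Treatment and this share therefore cannot be told apart in PrL females. Tcf7l2 had an estimate of -0.34 (SE 0.12, 95% interval -0.60 to -0.09, adjusted p = 0.145) over both sexes. Its 2 highest PrL values, 6.14 and 7.62 CPM, came from the 2 water libraries with olfactory bulb markers. Without both, its estimate was -0.16, that of Ramp3 0.53 and that of Plekhg1 in males -0.45 (edgeR adjusted p = 0.417, 0.285 and 0.364).

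**Figure D4:**
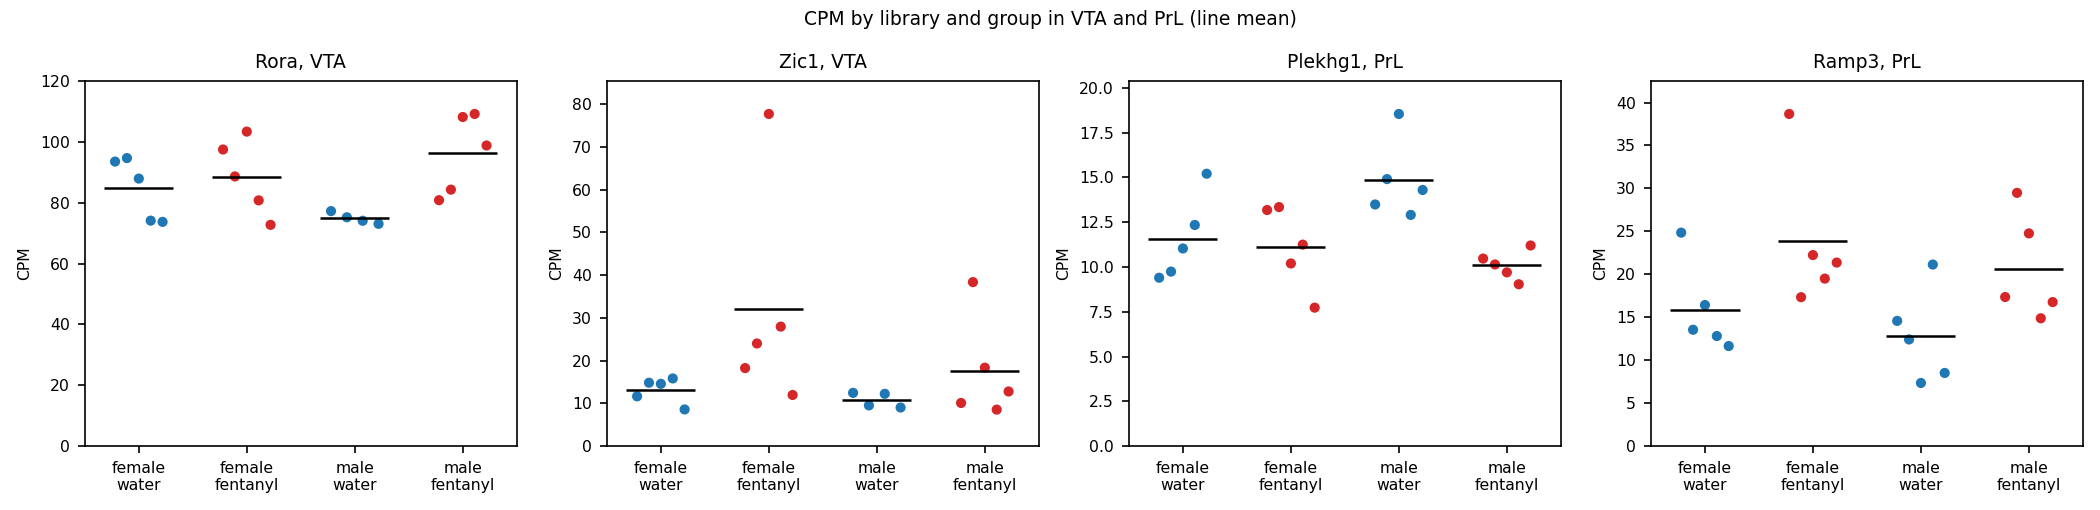
CPM of Rora and Zic1 in VTA and of Plekhg1 and Ramp3 in PrL in each library by sex and treatment, on axes from 0, with group means as lines (19 VTA and 20 PrL libraries). The male fentanyl points of Rora in VTA lie above, and those of Plekhg1 in PrL below, all water points of that sex.

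In NAc none of the 10 genes passed; the share of all genes called was 0.662% in males and 0% in females, over both sexes and for the difference. The number called in males was 129, but 0 without male water 3 and 813 without male fentanyl 5, and for the difference it reached 449 without female water 3. Over both sexes the number called reached 55 without male fentanyl 5. Lef1 in males was 4.19, 4.05, 3.4, 3.71 and 3.56 CPM with water and 4.26, 4.35, 4.37, 4.7 and 6.43 with fentanyl, and the groups did not overlap, as for 3.5% of all genes. Its log2 difference in males was 0.37 (SE 0.15, 95% interval 0.06 to 0.68, adjusted p = 0.194) by edgeR. In S1 none of the 9 genes tested passed, against 0.142% of all genes in females, 1.03% over both sexes and 0% in males and for the difference. The 203 genes called over both sexes became 30 without male water 4 and 502 without male fentanyl 5. Without that last library 220 genes were called in females and 30 in males. Synpo2 in males was 5.76, 7.47, 6.95 and 5.93 CPM with water and 4.48, 6.38, 4.09, 5.02 and 4.57 with fentanyl. The groups overlapped, as for all but 1.72% of genes, and the log2 difference of Synpo2 was -0.39 (SE 0.18, 95% interval -0.78 to -0.01, adjusted p = 0.695). With the share of reads outside exons as a covariate it was -0.23 (adjusted p = 0.748).

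**Figure D5:**
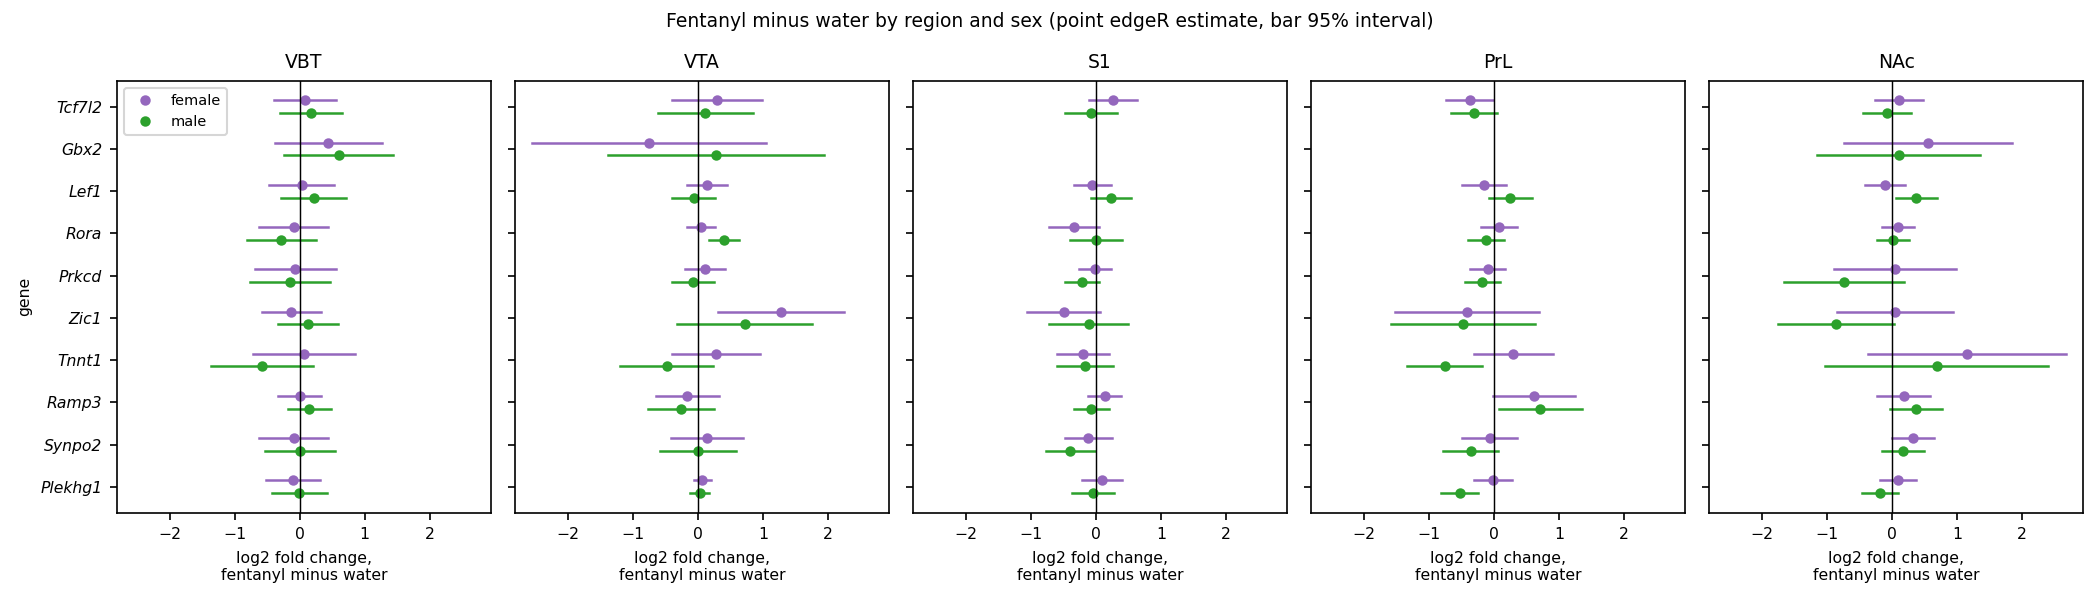
Log2 difference of fentanyl minus water for each gene in females (purple) and males (green) of each region, with 95% intervals from the edgeR fit. Gbx2 was not tested in S1 and PrL. Rora in VTA males is the only single-sex difference that passed the adjusted test.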

How the data were processed

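RNA from tissue punches was made into Smart-Seq v4 libraries, per the labels' protocols. The deposited values are whole-number read counts per Ensembl gene, made by the authors; the submitters' processing notes name HTSeq and GRCm38. The aligner is not given in the sources used here. The 5 summary lines that name no gene were kept out of all totals; reads outside exons came to 9.99% to 18.0% of each library. GENCODE M21 gave symbols for 55154 of 55335 identifiers.

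Each region was fitted alone in edgeR 4.0.16 (R 4.3.3) with 4 groups of sex and treatment, TMM scaling, filterByExpr and the quasi-likelihood F test, called at a Benjamini-Hochberg adjusted p under 0.05 over all genes tested. Genes, lists and regions were chosen with earlier results of these data known. Regions other than VBT were compared over water libraries with sex as a covariate. Named genes outside the 10 were the 5 with the region profile nearest the median of the 10, plus the nearest to each. Alternatives used DESeq2 1.42.0 and limma 3.58.1, other filters, offsets and covariates. Libraries with counts in under 10000 genes (1 of 99) were left out. Promoter sequences came from RefSeq, whose table held all 10 genes; of several starts the most upstream was used. On simulated counts for VBT males, the fit recovered 86 of 100 genes changed 2-fold and 67 of 100 changed 1.5-fold, with 9 false calls among 16484 genes. For VTA males it recovered 79 and 61 of 100, with 5 false calls among 16879. The simulation drew each gene on its own, so it held no shift shared by many genes of a library. Some VBT libraries showed such shifts, so these counts do not give the power for the 10 genes there.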

Additional observations from a re-analysis of the deposited data

Results flagged for a closer look

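Within the VBT groups, 6 of 40 combinations of gene and group held a value far from the other 4, where chance flags about 1 in 20. In male water 3 the low values were 92.0 CPM for Tcf7l2 (196 to 232 in the others), 667 for Prkcd (1492 to 1808), 148 for Zic1 (305 to 350), 71.6 for Tnnt1 (157 to 185) and 286 for Plekhg1 (513 to 585). In female water 2 Plekhg1 was low at 397 CPM (579 to 652). The 5 values of male water 3 come from 1 library and are not independent of each other.

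The library left out, labelled VTA male water 3, held 8 of the 10 genes far above the other 9 water libraries of VTA. Tcf7l2 stood at 205 CPM there (12.2 to 31.4 in the others), Lef1 at 245 (4.74 to 7.13) and Rora at 321 (73.1 to 94.7). Prkcd stood at 683 CPM (13.4 to 15.9), Zic1 at 200 (8.58 to 15.8) and Ramp3 at 155 (1.17 to 2.44). Synpo2 stood at 256 CPM (6.08 to 15.2) and Plekhg1 at 473 (46.6 to 57.1). Gbx2 and Tnnt1 had no read in that library, and dopamine neuron genes summed to 142 CPM. The 15 other thalamic genes summed to 3098 CPM there, within the VBT range of 1689 to 4555. Its dopamine sum lay below every VTA library kept (at least 335 CPM). That sum was above every library of the other regions (at most 69.3 CPM, and 8.23 in VBT). The marker sums thus matched neither VBT nor the other VTA libraries in full.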

How the results depend on the processing

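No gene of the 10 passed the test in VBT, S1, PrL or NAc under any alternative run, each library left out included. In VTA the number called over both sexes was 2. It was 1 with limma-voom, with no filter on low counts and with a replicate block (Zic1 lost, at 0.72 with an adjusted p of 0.135 under the block), 1 with offsets for exon length (Rora lost), and 0 with offsets for GC content and with VTA male water 3 kept in. It ranged from 0 to 2 when each library was left out. In VTA males the number was 1, and 0 with offsets for GC content and with VTA male water 3 kept in; it was 1 to 1 with each library left out. Replicate numbers did not pair the samples: 18 of 48 same-numbered pairs of fentanyl and water correlated above 0.1, and in 0 of 10 sets of pairs did all of them. The replicate block changed the number called among the 10 in no other comparison of fentanyl and water. With VTA male water 3 kept in, the log2 estimate of Rora turned to -0.13 in males, -0.05 over both sexes and -0.18 for the difference between the sexes. In VBT over both sexes, estimates near 0 turned sign: Tcf7l2 to -0.01 with limma-voom and -0.02 without the 4 libraries that stood apart, Zic1 from 0.00 to -0.08 without them, Lef1 to -0.03, Ramp3 to -0.05 and Zic1 to -0.13 in the fit that took the share of reads outside exons into account, and Synpo2 between -0.14 and 0.02 over fits that each left out 1 library. With water libraries alone, 3 of the 5 genes nearest the median profile stayed. Of 30 steps between neighbouring regions, 13 passed, and 12 to 18 under the alternatives (12 with the replicate block). The causes were not tested. The fits that left out libraries standing apart, and the one with other thalamic genes as a covariate, were chosen after seeing the data. Depth limits Gbx2 in S1 and PrL, where most libraries held no read.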
